A study of Mus musculus with 12 samples.

Results

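The 10 genes described here encode the cell-surface and endosomal sensors of bacterial lipopolysaccharide (LPS), bacterial lipoproteins and double-stranded RNA together with their entry proteins and adaptors: Lbp, Cd14, Ly96, Tlr4, Tlr2, Tlr1, Tlr6, Tlr3, Myd88 and Ticam1. They were taken by mouse symbol from a table of 55822 gene identifiers, and each symbol matched 1 row. RNA was measured in 12 libraries of primary smooth muscle cells from the mouse aorta, which build the contractile layer of the vessel, 4 libraries in each of 3 groups. The IFNγ/LPS CM group received conditioned medium (CM) of bone marrow-derived macrophages that had been primed with 20 ng/mL interferon gamma overnight and stimulated with 100 ng/mL LPS for 4 hours; the naive CM group received medium of macrophages without this stimulation. Both kinds of macrophages were washed 4 times before fresh medium was added, and this medium, with 0.3% serum, antibiotics and 10 ng/mL M-CSF (a macrophage growth factor), was collected after 24 hours. Smooth muscle cells starved for 48 hours in 0.3% serum then stayed in it for 24 hours. The third group, regular medium, was kept in regular growth medium, and the labels do not say whether its cells were starved or what that medium held. Which macrophage medium a library received was read from the column names M0 (naive) and M1 (IFNγ/LPS), which the labels do not explain, so every direction rests on this reading. Strain, sex and age of the mice, and whether the numbered biological replicates came from separate animals or cultures, are not stated in the labels, so the p-values reflect only how these libraries vary, which may in part be technical.

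As background, LBP is a soluble protein that picks up LPS and hands it to CD14, which passes it to MD-2 (the product of Ly96) held by TLR4. TLR2 pairs with TLR1 or TLR6 to sense bacterial lipoproteins, and TLR3 senses double-stranded RNA in endosomes. The adaptor MyD88 carries the signal of these surface receptors to NF-κB, while TRIF (the product of Ticam1) serves TLR3 and internalised TLR4 and leads to type I interferon. Macrophages carry most of these receptors, and vascular smooth muscle cells are known to carry TLR4 and TLR2 as well.

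Library totals ran from 40270540 to 44607657 estimated counts in IFNγ/LPS CM, 28542613 to 56323683 in naive CM and 28097496 to 61493375 in regular medium, with the shallowest library being replicate 3 in naive CM and in regular medium alike. The correlation of log2 CPM (counts per 1000000 of the scaled library total) across genes was 0.989 to 0.993 within groups; for IFNγ/LPS CM with naive CM it was 0.864 to 0.869. Smooth muscle markers were only partly present: Acta2 stood at 77.3 ± 3.60 CPM in IFNγ/LPS CM, 220.2 ± 8.05 CPM in naive CM and 280.1 ± 29.9 CPM in regular medium (mean ± SD, n = 4 each, as for all such values), but Myh11 and Cnn1 were below 1 CPM in all 3 groups. Tagln, also a defining marker, stood at 0.550 ± 0.0315, 10.8 ± 1.78 and 31.6 ± 12.4 CPM in these groups in that order. All 10 smooth muscle markers were tested in IFNγ/LPS CM against naive CM. Of them 1 was higher, 7 were lower and 2 were not called, beside 36.1% higher and 35.8% lower among all genes tested. Of 20 macrophage markers, 3, 6 and 6 had no count in IFNγ/LPS CM, naive CM and regular medium, and of the 6 defining ones Ptprc had 1, 3 and 3 counts, Adgre1 2, 0 and 0, Itgam 6, 0 and 1, Tyrobp 2, 2 and 0, and Spi1 3, 4 and 10 counts summed over each of these groups in that order. The sixth, Csf1r, averaged 4.62 ± 0.515 CPM in IFNγ/LPS CM, 0.203 ± 0.0873 CPM in naive CM and 0.142 ± 0.0873 CPM in regular medium. The summed level of the 20 markers was 877 to 991 CPM in IFNγ/LPS CM, 9.42 to 11.7 CPM in naive CM and 4.81 to 5.60 CPM in regular medium, of which Mpeg1, an interferon-inducible perforin-like gene, held 874 ± 50.6 CPM in IFNγ/LPS CM. Of the 20, 6 were tested and these 6 were higher in IFNγ/LPS CM than in naive CM; 1 of them, Lyz2, passed the filter on low counts only through IFNγ/LPS CM. Besides Mpeg1 and Csf1r, Itgb2 averaged 14.9 ± 1.58 CPM in IFNγ/LPS CM and 0.381 ± 0.143 CPM in naive CM, Cd53 14.5 ± 0.538 CPM and 8.22 ± 0.958 CPM, and Cd68 6.19 ± 1.096 CPM and 1.07 ± 0.170 CPM in the same order. Macrophages also express Cd14, Tlr2 and Tlr4, and the part of these markers in the results was not tested. Summed endothelial markers stood at 3.01 to 3.55, 1.73 to 2.09 and 1.34 to 2.20 CPM in IFNγ/LPS CM, naive CM and regular medium. Of these sums Tek held 2.18 ± 0.331, 0.148 ± 0.0777 and 0.386 ± 0.171 CPM. Of 5 endothelial markers tested 1 was higher, 2 lower and 2 not called in IFNγ/LPS CM against naive CM. Summed adventitial fibroblast markers stood at 6846 to 7522, 2118 to 2293 and 2074 to 2384 CPM in IFNγ/LPS CM, naive CM and regular medium, mostly from the matrix proteoglycan Dcn. Of 9 fibroblast markers tested 3 were higher and 5 lower in IFNγ/LPS CM than in naive CM; the part of fibroblast-type cells in the results was not tested. In bulk RNA, more cells of a type and more RNA per cell cannot be told apart.

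Promoters of 6 of the 10 genes (8 sequences, RefSeq, GRCm38.p6) were searched, for Tlr2, Tlr1, Tlr6, Tlr3, Myd88 and Ticam1. Those of Lbp, Cd14, Ly96 and Tlr4 were not searched, so nothing is said about elements in them. The promoters of Tlr2, Tlr3, Myd88 and Ticam1 are shown, 250 bases before to 50 bases after the annotated RefSeq start and 5′ to 3′ on the gene's strand, because these genes span the range of responses, from the largest rise to the smallest. The Tlr3 and Myd88 windows lie wholly inside the genes as GENCODE M21 annotates them, which begin further upstream, at 45411080 and 119341411. Sequence around those starts was not searched. Capitals mark matches on either strand to an NF-κB element (GGGA, any base, then TTTCC), to the core of the interferon-stimulated response element (ISRE; GAAA, any 2 bases, then GAAA) or to the interferon gamma activated site (GAS; TTC, any 3 bases, then GAA).
Tlr2, chr3:83841559-83841858, minus strand: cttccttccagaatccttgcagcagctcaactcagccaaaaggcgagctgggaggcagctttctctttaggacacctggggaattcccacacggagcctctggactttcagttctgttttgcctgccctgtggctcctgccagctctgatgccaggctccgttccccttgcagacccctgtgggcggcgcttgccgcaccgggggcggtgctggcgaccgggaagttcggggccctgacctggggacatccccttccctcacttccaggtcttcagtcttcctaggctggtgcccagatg
Tlr3, chr8:45410331-45410630, minus strand: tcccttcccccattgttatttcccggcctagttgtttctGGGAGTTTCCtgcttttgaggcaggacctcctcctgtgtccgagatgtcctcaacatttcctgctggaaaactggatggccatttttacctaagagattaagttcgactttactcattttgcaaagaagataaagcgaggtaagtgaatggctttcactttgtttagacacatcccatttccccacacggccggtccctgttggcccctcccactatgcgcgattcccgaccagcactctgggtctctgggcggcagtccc
Myd88, chr9:119339969-119340268, minus strand: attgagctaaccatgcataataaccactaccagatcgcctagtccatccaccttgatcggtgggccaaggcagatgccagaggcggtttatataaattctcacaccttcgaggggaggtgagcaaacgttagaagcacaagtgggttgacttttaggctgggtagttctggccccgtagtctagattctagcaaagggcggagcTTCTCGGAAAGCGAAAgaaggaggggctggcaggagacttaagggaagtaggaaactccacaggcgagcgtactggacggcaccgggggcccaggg
Ticam1, chr17:56276718-56277017, minus strand: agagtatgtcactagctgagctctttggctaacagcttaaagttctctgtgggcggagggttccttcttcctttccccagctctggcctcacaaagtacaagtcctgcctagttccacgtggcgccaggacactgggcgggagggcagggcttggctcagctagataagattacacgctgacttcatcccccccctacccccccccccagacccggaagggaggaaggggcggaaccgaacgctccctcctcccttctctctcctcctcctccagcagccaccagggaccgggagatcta
The Tlr3 promoter held 1 NF-κB element, GGGAGTTTCC, a kind of element found in 0.411% of 32851 promoters. The Myd88 promoter held an ISRE core, GAAAGCGAAA, at position -40 from the start, and a GAS, TTCTCGGAA, at position -46, which share 3 bases. ISRE cores were found in 3.44% and GAS in 8.30% of all promoters. Neither the Tlr2 nor the Ticam1 window held a match to these letters. Only these patterns were searched, and the NF-κB pattern is a narrow one. A window without a match may therefore still hold such an element in other letters, as with ggggaattcc in the Tlr2 window. Of the promoters not shown, 1 of the Tlr1 promoters held a GAS, 1 of the Tlr6 promoters held 2 ISRE cores and the other held 2 GAS. Such matches are letters in a window, not measured binding.

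Set against medium of naive macrophages, most of these genes were higher in smooth muscle cells given medium of IFNγ/LPS-treated macrophages, and the partners of Tlr2 were lower. In IFNγ/LPS CM 8 of the 10 genes were higher and 2 were lower than in naive CM at an adjusted p under 0.05 (edgeR quasi-likelihood test across 16140 genes), and in each of the 10 the libraries of the groups did not overlap. Of all genes tested, 36.1% were higher and 35.8% were lower, 71.9% in all; 69.5% did not overlap (34.9% higher, 34.6% lower), so a call by itself was common. The sizes of the rises differed widely: Tlr2 rose 40.9-fold, Lbp 23.2-fold, Tlr3 19.8-fold, Myd88 6.25-fold, Ly96 2.76-fold, Cd14 2.29-fold, Tlr4 2.16-fold and Ticam1 1.16-fold, while Tlr1 and Tlr6 fell. The median log2 fold change of the 10 was 1.33, beside 0.004 over all genes tested.

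**Figure D1:**
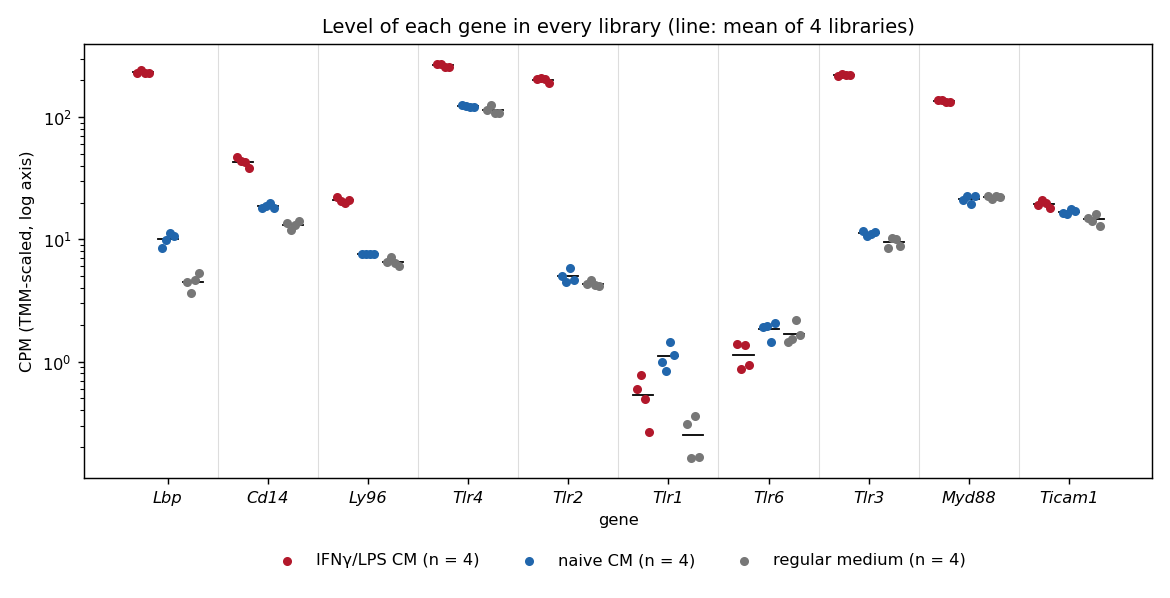
Level of the 10 genes in every library, as CPM on a log axis, for IFNγ/LPS CM, naive CM and regular medium (points: libraries, 4 a group; lines: means). Lbp, Tlr2 and Tlr3 lie at 188.6 CPM or above in IFNγ/LPS CM and at 11.6 CPM or below in the other groups, Tlr4 is above 100 CPM in all 12 libraries, and Tlr1 is highest in naive CM.

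Among the proteins that deliver LPS, Lbp, the soluble carrier, changed most. Its level was 229.6, 241.5, 230.8 and 228.1 CPM in IFNγ/LPS CM, 8.53, 9.92, 11.2 and 10.6 CPM in naive CM, and 4.48, 3.64, 4.61 and 5.33 CPM in regular medium, for replicates 1 to 4 of each group. All 3 groups were separate, with IFNγ/LPS CM far above the others and naive CM above regular medium. The log2 fold change of Lbp was 4.53 (SE 0.0889, edgeR adjusted p = 7.42e-16) between IFNγ/LPS CM and naive CM, larger than that of 97.5% of the genes tested. Cd14, the membrane protein that receives LPS from LBP, had 46.8, 43.6, 43.0 and 38.2 CPM in IFNγ/LPS CM, 18.1, 18.8, 19.9 and 18.1 CPM in naive CM, and 13.7, 11.9, 13.1 and 14.1 CPM in regular medium. Here too the 3 groups did not overlap. Cd14 changed by 1.20 on the log2 scale (SE 0.0667, edgeR adjusted p = 4.03e-12) between IFNγ/LPS CM and naive CM. Lbp lies on chromosome 2 at 158306493 to 158332852 and Cd14 on chromosome 18 at 36725067 to 36726798 (GRCm38, GENCODE M21, as for all gene positions).

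The LPS receptor itself was already well expressed and rose moderately. Tlr4, on chromosome 4 at 66827584 to 66930284, stood at 271.3, 272.8, 258.8 and 254.1 CPM in IFNγ/LPS CM, 126.2, 123.4, 119.9 and 119.96 CPM in naive CM, and 114.1, 126.4, 108.0 and 108.8 CPM in regular medium. The IFNγ/LPS CM libraries lay above all others, and naive CM and regular medium overlapped. Tlr4 changed by 1.11 on the log2 scale between IFNγ/LPS CM and naive CM (SE 0.0474, edgeR adjusted p = 6.16e-14). Ly96, on chromosome 1 at 16688051 to 16709611, encodes the LPS-binding subunit of the receptor and had 22.1, 20.7, 19.8 and 21.0 CPM in IFNγ/LPS CM, 7.55, 7.59, 7.54 and 7.54 CPM in naive CM, and 6.47, 7.17, 6.36 and 6.07 CPM in regular medium. Again the groups did not overlap, and the 4 naive CM libraries were nearly equal. The log2 fold change of Ly96 between IFNγ/LPS CM and naive CM was 1.47 (SE 0.0681, edgeR adjusted p = 2.31e-13).

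The TLR2 family split. Tlr2, the common subunit of the lipoprotein receptors, on chromosome 3 at 83836272 to 83841767, had 205.6, 207.1, 204.4 and 188.6 CPM in IFNγ/LPS CM, 5.01, 4.50, 5.81 and 4.66 CPM in naive CM, and 4.35, 4.66, 4.22 and 4.17 CPM in regular medium. Naive CM and regular medium overlapped, and IFNγ/LPS CM lay apart from both. Its log2 fold change of 5.35 (SE 0.0657, edgeR adjusted p = 2.04e-22) between IFNγ/LPS CM and naive CM exceeded that of 98.0% of the genes tested. Tlr1, a partner of TLR2 for triacylated lipoproteins, was low everywhere, at 0.592, 0.781, 0.499 and 0.265 CPM in IFNγ/LPS CM, 0.998, 0.841, 1.44 and 1.14 CPM in naive CM, and 0.309, 0.162, 0.362 and 0.165 CPM in regular medium. These levels rest on 9 to 27 counts a library in IFNγ/LPS CM, 45 to 67 in naive CM and 8 to 18 in regular medium. Naive CM was above every library of both other groups, which overlapped. The ratio of Tlr1 in IFNγ/LPS CM to naive CM was 0.506, with an exact 95% counting interval of 0.384 to 0.661 (log2 fold change -1.02, SE 0.301, edgeR adjusted p = 0.00523). Tlr6, the partner for diacylated lipoproteins, had 1.40, 0.868, 1.36 and 0.944 CPM in IFNγ/LPS CM, 1.93, 1.96, 1.44 and 2.05 CPM in naive CM, and 1.44, 1.52, 2.17 and 1.65 CPM in regular medium, from 163, 380 and 333 counts in these groups. Every IFNγ/LPS CM library was below every other library, and the remaining groups overlapped. Between IFNγ/LPS CM and naive CM Tlr6 changed by -0.70 on the log2 scale (SE 0.193, edgeR adjusted p = 0.00321). Counting intervals cover counting error only.

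Tlr1 and Tlr6 are neighbours and close relatives, on chromosome 5 at 64924679 to 64933563 and 64952031 to 64960097. Of all stretches of 31 bases in annotated Tlr1 transcripts, 18.3% also occurred in Tlr6, and 16.4% of those of Tlr6 occurred in Tlr1, so estimated counts may have been split between them, and each single value is uncertain to that extent. Taken as a sum, which such a split leaves as it is, they stood at 1.99, 1.65, 1.86 and 1.21 CPM in IFNγ/LPS CM, 2.93, 2.80, 2.89 and 3.19 CPM in naive CM, and 1.75, 1.68, 2.54 and 1.82 CPM in regular medium. Naive CM was the highest group without overlap, while IFNγ/LPS CM and regular medium overlapped. The sum was chosen after the values were seen and is given without a test. Tlr1 made up 31.8% of the counts of both in IFNγ/LPS CM (exact 95% interval 25.9 to 38.1%), 35.8% in naive CM (31.9 to 39.8%) and 12.6% in regular medium (9.44 to 16.4%). Each of the other 8 genes shared 1.27% of its stretches or less with any other gene.

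Tlr3, the endosomal sensor of double-stranded RNA, on chromosome 8 at 45395665 to 45411080, rose nearly as far as Lbp. It had 218.4, 222.8, 222.4 and 222.3 CPM in IFNγ/LPS CM, 11.6, 10.7, 11.0 and 11.5 CPM in naive CM, and 8.55, 10.3, 10.0 and 8.90 CPM in regular medium. The 3 groups did not overlap. Its log2 fold change between IFNγ/LPS CM and naive CM was 4.30 (SE 0.0556, edgeR adjusted p = 4.49e-22). An annotated antisense gene, Gm45542, overlaps 381 bases of its exons, but had only 2, 2 and 0 counts in IFNγ/LPS CM, naive CM and regular medium.

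The adaptors differed from each other. Myd88, on chromosome 9 at 119335934 to 119341411, had 137.7, 137.6, 133.3 and 132.0 CPM in IFNγ/LPS CM, 21.1, 22.7, 19.5 and 22.8 CPM in naive CM, and 22.6, 21.5, 22.7 and 22.0 CPM in regular medium. IFNγ/LPS CM stood apart, and naive CM and regular medium overlapped. Myd88 changed by 2.64 on the log2 scale between IFNγ/LPS CM and naive CM (SE 0.0490, edgeR adjusted p = 1.08e-19). Its exons share 290 bases with Acaa1a on the other strand; Acaa1a was at 96.4 ± 3.19, 51.2 ± 0.722 and 53.5 ± 2.51 CPM in IFNγ/LPS CM, naive CM and regular medium. The library kit keeps strand, but whether the counting used it is not stated in the labels, so reads in those bases may not have been told apart. Ticam1, on chromosome 17 at 56269319 to 56276786, had 19.0, 20.9, 20.0 and 17.9 CPM in IFNγ/LPS CM, 16.3, 16.1, 17.8 and 17.2 CPM in naive CM, and 15.1, 14.2, 16.2 and 13.0 CPM in regular medium. IFNγ/LPS CM lay only just above naive CM, with 17.9 CPM as its lowest and 17.8 CPM as the highest naive CM library. The log2 fold change of Ticam1 between IFNγ/LPS CM and naive CM was 0.21 (SE 0.0712, edgeR adjusted p = 0.0138). With library totals in place of the TMM scaling (trimmed mean of M values) the sign turned, to -0.18 (edgeR adjusted p = 0.0287), a scaling under which all genes had a median of -0.38, and without IFNγ/LPS CM replicate 2 the call was lost (0.17, edgeR adjusted p = 0.0541).

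**Figure D2:**
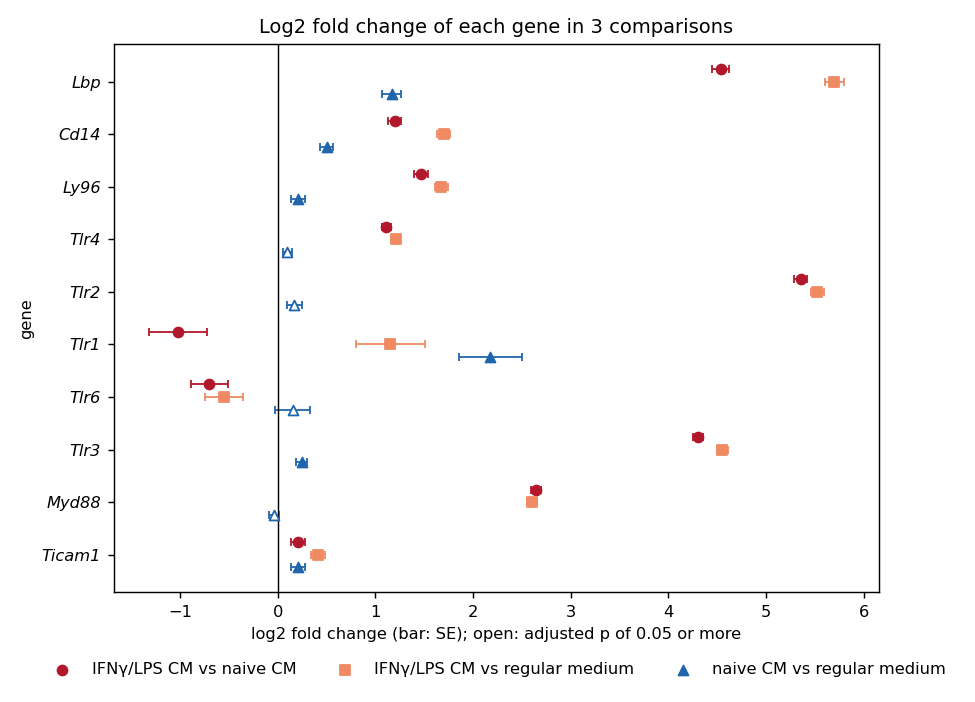
Log2 fold change of each gene (points; bars: SE) in IFNγ/LPS CM against naive CM, IFNγ/LPS CM against regular medium and naive CM against regular medium; open points did not pass an adjusted p of 0.05. Tlr2, Lbp and Tlr3 lie between 4.30 and 5.70 for IFNγ/LPS CM, and Tlr1 has its largest change, 2.18, in naive CM against regular medium.

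Ratios of genes within a library, which do not depend on the scaling between libraries apart from a small pseudocount (0.05 CPM), tested whether partners changed by different amounts (two-sided exact permutation test of 4 libraries against 4, smallest possible p = 0.0286, adjusted over 18 tests of 6 pairs in 3 comparisons). The log2 ratio of Tlr2 to Tlr1 averaged 8.51 ± 0.531 in IFNγ/LPS CM, 2.15 ± 0.194 in naive CM and 3.94 ± 0.529 in regular medium, and differed in all 3 comparisons (exact adjusted p = 0.0367 each, n = 4). For Tlr2 to Tlr6 it averaged 7.43 ± 0.321 in IFNγ/LPS CM, 1.42 ± 0.379 in naive CM and 1.35 ± 0.299 in regular medium. IFNγ/LPS CM differed from both other groups (exact adjusted p = 0.0367), whereas naive CM and regular medium differed by 0.07 and did not pass (exact adjusted p = 0.771). The log2 ratio of Tlr2 to Tlr4 in CPM, not corrected for their different lengths and so no order of the levels, was -0.39 ± 0.0376 in IFNγ/LPS CM, -4.61 ± 0.176 in naive CM and -4.70 ± 0.0349 in regular medium; IFNγ/LPS CM differed from both (exact adjusted p = 0.0367).

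Within the LPS receptor complex the shifts were small. The log2 ratio of Ly96 to Tlr4 averaged -3.66 ± 0.0616 in IFNγ/LPS CM, -4.01 ± 0.0345 in naive CM and -4.12 ± 0.0325 in regular medium, and it differed in all 3 comparisons (exact adjusted p = 0.0367 each, n = 4), so Ly96 rose more than Tlr4 by 0.35 on the log2 scale in IFNγ/LPS CM against naive CM. For Cd14 to Tlr4 the averages were -2.62 ± 0.0851, -2.71 ± 0.0862 and -3.11 ± 0.20 in IFNγ/LPS CM, naive CM and regular medium. The difference of 0.08 between IFNγ/LPS CM and naive CM did not pass (exact adjusted p = 0.289), while naive CM exceeded regular medium by 0.40 (exact adjusted p = 0.0367). Between the adaptors the ratio shifted further: the log2 ratio of Ticam1 to Myd88 was -2.80 ± 0.0831 in IFNγ/LPS CM, -0.35 ± 0.155 in naive CM and -0.61 ± 0.112 in regular medium, a difference of -2.44 from naive CM (exact adjusted p = 0.0367).

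**Figure D3:**
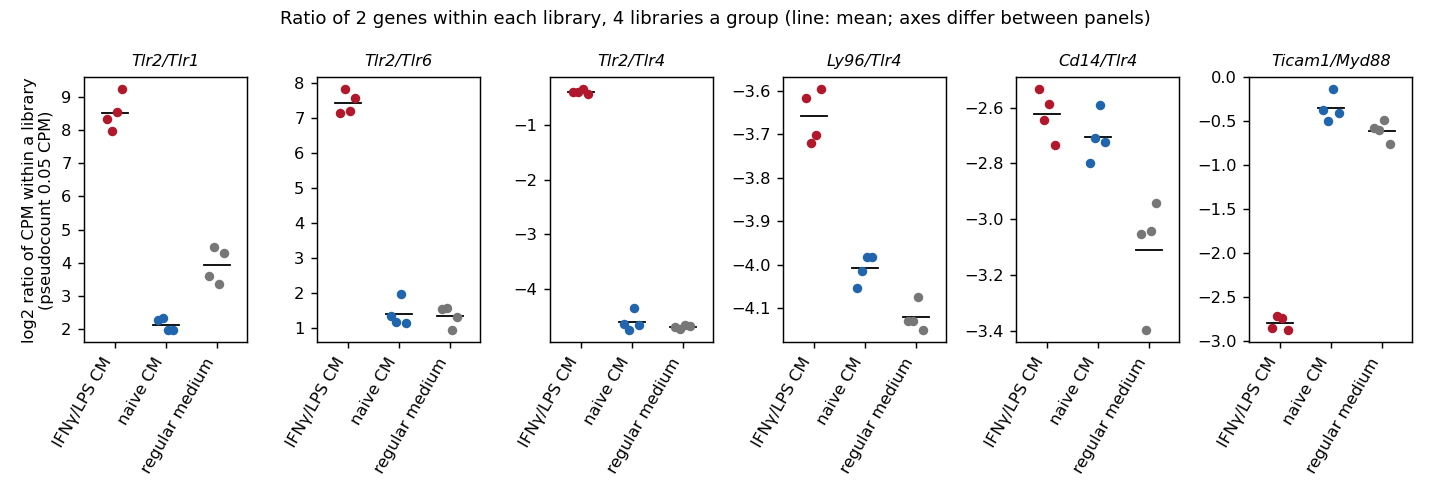
Log2 ratio of the CPM of 2 genes within each library for 6 pairs (points: libraries, 4 a group in the order IFNγ/LPS CM, naive CM, regular medium; lines: means; each panel has its own axis). Tlr2 gained on Tlr1, Tlr6 and Tlr4 in IFNγ/LPS CM, Ticam1 lost ground to Myd88, and Cd14 to Tlr4 overlapped between IFNγ/LPS CM and naive CM.

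Divided by the summed length of annotated exons, the levels of different genes could be set in order. In IFNγ/LPS CM the order was Tlr2 (66.8 ± 2.87 CPM per kilobase), Myd88 (52.5 ± 1.14), Lbp (48.1 ± 1.26), Tlr4 (47.6 ± 1.66), Tlr3 (42.5 ± 0.390), Cd14 (24.8 ± 2.05), Ly96 (20.5 ± 0.909), Ticam1 (6.49 ± 0.434), Tlr6 (0.307 ± 0.0738) and Tlr1 (0.160 ± 0.0641), each in CPM per kilobase. Lbp and Tlr4, and Tlr6 and Tlr1, overlapped between libraries, and no other neighbours did. Tlr4 led in naive CM with 22.0 ± 0.549 CPM per kilobase, followed by Cd14 with 10.8 ± 0.480, Myd88 with 8.36 ± 0.596, Ly96 with 7.40 ± 0.0219 and Ticam1 with 5.63 ± 0.265 CPM per kilobase. Tlr3, Lbp and Tlr2 came next in naive CM with 2.15 ± 0.0796, 2.08 ± 0.240 and 1.66 ± 0.193 CPM per kilobase and overlapped as neighbours. Tlr4 also led in regular medium, with 20.6 ± 1.53 CPM per kilobase, and Tlr1 was last, with 0.0747 ± 0.0304 CPM per kilobase. Tlr2 stood eighth in naive CM and seventh in regular medium. With the length of the longest transcript in place of all exons Lbp came first in IFNγ/LPS CM, at 92.1 CPM per kilobase, ahead of Tlr2 at 66.8 CPM per kilobase, so the order at the top depends on the length used; which transcripts the cells made is not known from gene-level values.

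**Figure D4:**
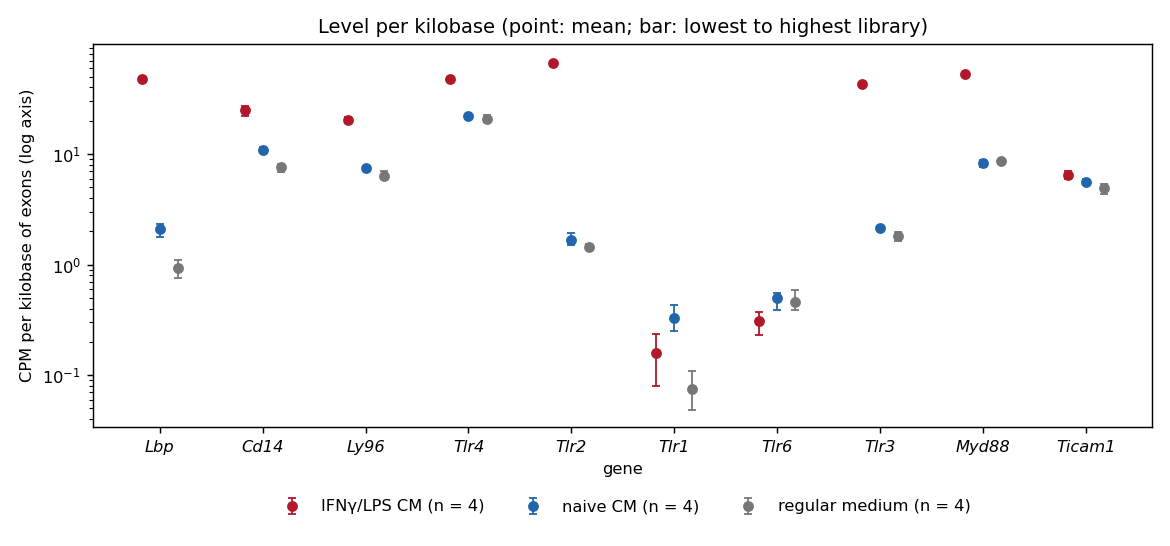
Level of each gene per kilobase of annotated exons on a log axis (points: means of 4 libraries; bars: lowest to highest library) in IFNγ/LPS CM, naive CM and regular medium. Tlr4 leads in naive CM and regular medium at 22.0 and 20.6 CPM per kilobase, and in IFNγ/LPS CM Tlr2, Myd88, Lbp, Tlr4 and Tlr3 lie between 42.5 and 66.8 CPM per kilobase.

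Against regular medium, IFNγ/LPS CM had 9 of the 10 genes higher and 1, Tlr6, lower, where 35.4% of all genes tested were higher, 36.4% lower and 71.8% called in all. The libraries did not overlap for 8 genes higher and 1 lower, beside 32.5% and 32.7% of all genes, 65.2% in all. This comparison shares the IFNγ/LPS CM libraries with the first, so it is no second test of them. Lbp rose 52.0-fold (5.70 on the log2 scale, SE 0.0971, edgeR adjusted p = 1.29e-16), Tlr2 46.0-fold, Tlr3 23.4-fold, Myd88 6.09-fold, Cd14 3.25-fold, Ly96 3.20-fold, Tlr4 2.31-fold and Ticam1 1.33-fold. Tlr1 was higher in IFNγ/LPS CM than in regular medium, in contrast to its fall against naive CM, with a count ratio of 2.29 and an interval of 1.57 to 3.36 (log2 fold change 1.15, SE 0.353, edgeR adjusted p = 0.00687), although the libraries overlapped. With library totals Tlr1 missed the threshold (0.77, edgeR adjusted p = 0.0516), as did Ticam1 (0.03, edgeR adjusted p = 0.733). The log2 fold change of Tlr6 was -0.55 (edgeR adjusted p = 0.0176), and this call was lost without IFNγ/LPS CM replicate 2, without IFNγ/LPS CM replicate 4 or without regular medium replicate 3 (edgeR adjusted p = 0.0641, 0.0553 and 0.0628).

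With medium of unstimulated macrophages, Tlr1, Lbp and Cd14 had the largest differences from regular medium. In naive CM 6 of the 10 genes were higher than in regular medium, 0 were lower by the edgeR test (0 also at an unadjusted p under 0.05, with DESeq2 and with limma-voom) and 4 did not pass, where 18.3% of all genes tested were higher, 16.4% lower and 34.7% called in all. In 5 genes, all higher, the libraries did not overlap, beside 17.2% of all genes higher and 15.5% lower without overlap, 32.7% in all. Tlr1 stood 4.52 times as high by counts (interval 3.29 to 6.32; log2 fold change 2.18, SE 0.322, edgeR adjusted p = 3.33e-05), a change larger than that of 99.6% of the genes tested. Lbp rose 2.24-fold (1.17 on the log2 scale, SE 0.101, edgeR adjusted p = 5.54e-07), above 97.4% of the genes tested, and Cd14 1.42-fold (0.50, SE 0.0682, edgeR adjusted p = 1.24e-05). Tlr3 rose 1.19-fold (0.25, edgeR adjusted p = 0.00251). Ly96 and Ticam1 rose 1.16-fold and 1.15-fold, with edgeR adjusted p = 0.0255 and 0.0315. The call of Ly96 was lost without naive CM replicate 2 or 4 or without regular medium replicate 3 or 4 (edgeR adjusted p = 0.0525 to 0.0734), and that of Ticam1 without naive CM replicate 3 or 4 or without regular medium replicate 2 or 4 (edgeR adjusted p = 0.0713 to 0.0928). Tlr2 (log2 fold change 0.17, edgeR adjusted p = 0.0867), Tlr4 (0.10, edgeR adjusted p = 0.121), Tlr6 (0.15, edgeR adjusted p = 0.558) and Myd88 (-0.04, edgeR adjusted p = 0.597) did not pass. Tlr4 passed without regular medium replicate 2 (0.15, edgeR adjusted p = 0.00831), and Tlr2 without naive CM replicate 2 (0.22, edgeR adjusted p = 0.0427). Markers of other cells did not all move the same way. Of 6 macrophage markers tested, 3 were higher in naive CM than in regular medium and 3 were not called. The 3 higher were Cd53 (8.22 ± 0.958 CPM in naive CM, 3.54 ± 0.287 CPM in regular medium), Itgb2 (0.381 ± 0.143 CPM, 0.148 ± 0.0290 CPM) and Cd68 (1.07 ± 0.170 CPM, 0.689 ± 0.0918 CPM), while Ptprc had 3 counts in both groups. Of 9 fibroblast markers tested 5 were higher, 2 lower and 2 not called. Ly6a stood at 215.2 ± 9.14 CPM in naive CM and 69.6 ± 3.50 CPM in regular medium. Dpt stood at 9.87 ± 0.491 CPM and 2.47 ± 0.378 CPM in the same order. Col14a1 went the other way, at 257.2 ± 8.93 CPM in naive CM and 395.8 ± 13.3 CPM in regular medium. Of 5 endothelial markers tested 0 were higher, 1 was lower and 4 were not called. The part of these markers in the results was not tested.

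Other genes of the pathway were counted from 6 lists, 66 genes in all, of which 52 passed the filter on low counts; 7 of these, Tlr7, Ticam2, Il1rl1, Casp1, Aoah, Alpl and Trem2, passed only through IFNγ/LPS CM and so had to differ. Of the other 45, 34 were higher, 6 lower and 5 not called in IFNγ/LPS CM against naive CM, where 36.1% of all genes tested were higher, 35.8% lower and 71.9% called in all. Their median log2 fold change was 0.83, beside 0.004 over all genes. With the 7 included, 41 were higher and 6 lower, or 34 higher and 13 lower with library totals in place of TMM.

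Most other Toll-like receptors had few counts or none. Of 7, Tlr8, Tlr11 and Tlr12 had no count in any library, and Tlr9 had 2 counts in IFNγ/LPS CM only. Tlr5 had 17, 14 and 15 counts and Tlr13 22, 2 and 0 counts in IFNγ/LPS CM, naive CM and regular medium, too few to test. Tlr7, a sensor of single-stranded RNA, was the only one to pass the filter, and that through IFNγ/LPS CM alone, at 0.591 ± 0.155 CPM in IFNγ/LPS CM and 0.127 ± 0.0614 CPM in naive CM, a count ratio of 4.39 with an interval of 2.82 to 7.05; no test is given for it.

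Among 7 chaperones, coreceptors and modulators of the receptors, 5 were tested, 4 higher and 1 lower in IFNγ/LPS CM than in naive CM. Over all genes tested 36.1% were higher, 35.8% lower and 71.9% called in all. Cd36, a scavenger receptor that assists TLR2 with TLR6, fell to 0.437 ± 0.0822 CPM in IFNγ/LPS CM and stood at 5.83 ± 0.586 CPM in naive CM (log2 fold change -3.72, SE 0.176, edgeR adjusted p = 3.01e-13). Unc93b1, which brings endosomal receptors such as TLR3 to their place, had 263 counts in IFNγ/LPS CM against 74 counts in naive CM, 1.86 ± 0.125 CPM and 0.372 ± 0.0996 CPM (count ratio 5.02, interval 3.86 to 6.59). Tril, a coreceptor of TLR4 and TLR3, had 143 counts in IFNγ/LPS CM against 43 counts in naive CM, 1.01 ± 0.119 CPM and 0.217 ± 0.0267 CPM (count ratio 4.70, interval 3.32 to 6.77). Cd180 and Ly86, a receptor related to TLR4 and its MD-1 partner, had 3, 1 and 0 counts and 0, 0 and 2 counts in IFNγ/LPS CM, naive CM and regular medium.

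Of the 4 other adaptors with the same signalling domain or a related role, Ticam2 passed the filter only through IFNγ/LPS CM and so had to differ. Of the other 3, 2 were higher and 1 lower in IFNγ/LPS CM than in naive CM, where 36.1% of all genes tested were higher and 35.8% lower. As a description, Ticam2, which bridges TLR4 to TRIF, had 202 counts in IFNγ/LPS CM against 8 counts in naive CM, a ratio of 35.6 with an interval of 17.7 to 83.7. Pik3ap1, an adaptor to PI3 kinase, rose 4.53-fold to 2.62 ± 0.366 CPM, and Tirap, which bridges TLR2 and TLR4 to MyD88, rose 1.90-fold to 49.6 ± 1.88 CPM. By contrast, Sarm1, an NAD-cleaving relative, fell to 2.04 ± 0.345 CPM in IFNγ/LPS CM and stood at 3.76 ± 0.567 CPM in naive CM (log2 fold change -0.87, edgeR adjusted p = 2.14e-05).

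All 22 kinases, ubiquitin ligases and factors downstream were tested, with 16 higher, 2 lower and 4 not called in IFNγ/LPS CM against naive CM. Over all genes tested 36.1% were higher, 35.8% lower and 71.9% called in all. With library totals 10 of the 22 were higher and 8 lower, so the small changes in this list depend on the scaling. The largest rises were far beyond that shift. Irf7, an interferon regulatory factor, rose 227-fold to 679 ± 31.7 CPM, Ikbke, a kinase that acts on IRF3 and IRF7, rose 9.25-fold to 199 ± 9.75 CPM, and Irf5, another interferon regulatory factor, had 3130 counts in IFNγ/LPS CM against 99 counts in naive CM, 22.1 ± 0.498 CPM and 0.482 ± 0.126 CPM (count ratio 44.6, interval 36.5 to 55.1). Tab1, a partner of the kinase TAK1, fell to 13.3 ± 0.779 CPM in IFNγ/LPS CM and stood at 19.4 ± 0.252 CPM in naive CM (log2 fold change -0.54, edgeR adjusted p = 1.30e-07). Irf3, the factor that TRIF activates, stood at 25.8 ± 1.05 CPM in IFNγ/LPS CM and 25.1 ± 0.591 CPM in naive CM (log2 fold change 0.04, edgeR adjusted p = 0.589), chosen after its value was seen.

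Most brakes on the pathway were also higher. Of 14, 13 were tested, of which Il1rl1 passed the filter only through IFNγ/LPS CM. Of the other 12, 9 were higher, 2 lower and 1 not called in IFNγ/LPS CM against naive CM, beside 36.1% higher and 35.8% lower among all genes, and their median log2 fold change was 2.18. Socs1, an inhibitor of JAK kinases that also restrains Toll-like receptor signalling, rose 151-fold to 90.7 ± 3.32 CPM. Tnip3, a partner of the ubiquitin editor A20, rose 44.1-fold to 48.2 ± 3.11 CPM, and Nfkbia, the inhibitor that holds NF-κB in the cytoplasm, rose 9.63-fold to 196 ± 3.04 CPM. Dusp1, a phosphatase of p38 and JNK kinases, fell to 52.7 ± 4.57 CPM in IFNγ/LPS CM and stood at 128 ± 9.00 CPM in naive CM (log2 fold change -1.28, edgeR adjusted p = 2.13e-10).

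Of 12 genes of other LPS sensing and handling 7 were tested. Of these, 4 (Casp1, Aoah, Alpl and Trem2) passed the filter only through IFNγ/LPS CM and so had to differ. Their counts are a description only. The other 3 were higher in IFNγ/LPS CM than in naive CM, where 36.1% of all genes tested were higher and 35.8% lower. Gsdmd, the pore-forming protein cut by caspases that sense cytosolic LPS, rose 19.7-fold to 44.7 ± 1.42 CPM. Aoah, an enzyme that strips acyl chains from LPS, had 395 counts in IFNγ/LPS CM against 15 counts in naive CM (ratio 37.2, interval 22.3 to 67.1). Trem2, a lipid-binding receptor best known from macrophages, had 784 counts in IFNγ/LPS CM against 6 counts in naive CM (ratio 184, interval 84.4 to 504).

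**Figure D5:**
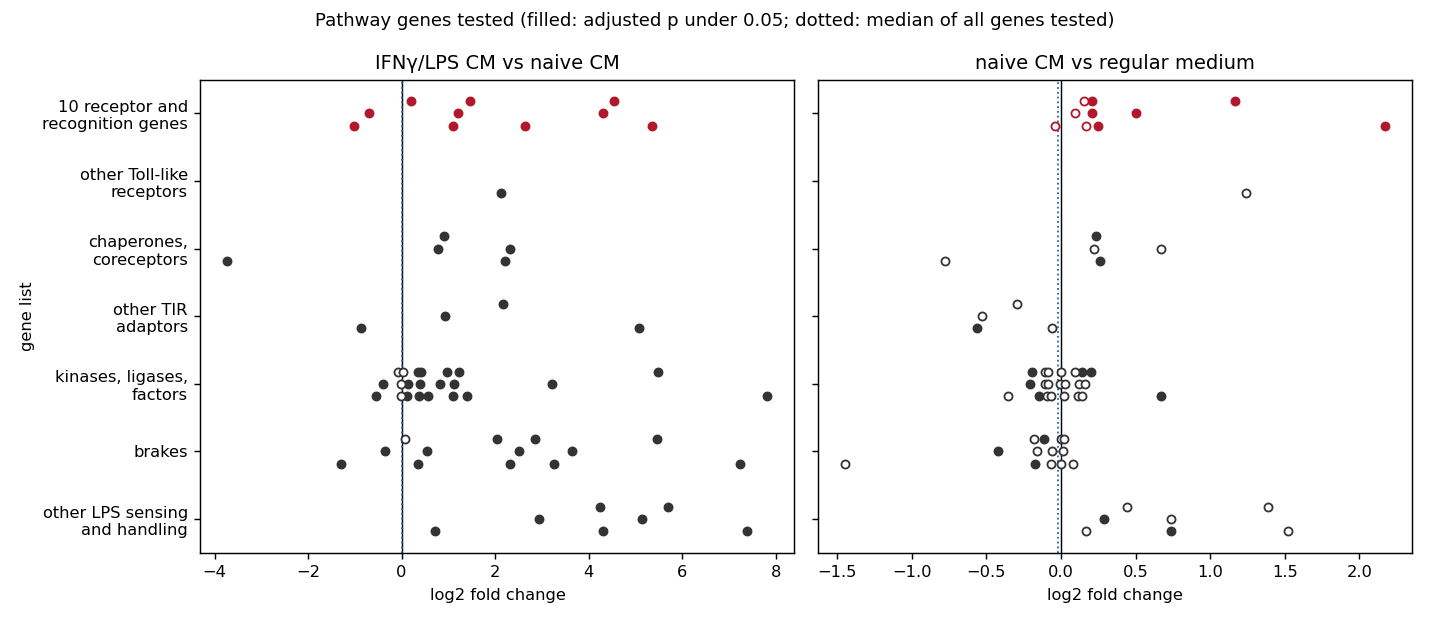
Log2 fold change of the 10 genes and of the tested genes of 6 pathway lists in IFNγ/LPS CM against naive CM (left) and naive CM against regular medium (right); filled points passed an adjusted p of 0.05 and the dotted line is the median of all genes tested. In the left panel 41 of the 52 pathway genes tested were higher and 6 lower, or 34 and 6 of the 45 that did not need IFNγ/LPS CM to pass the filter; in the right panel 7 were higher and 7 lower.

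In naive CM against regular medium the 45 genes that did not need IFNγ/LPS CM to pass the filter gave 7 higher, 7 lower and 31 not called. Their median log2 fold change was near 0 (-0.00087), beside 18.3% higher and 16.4% lower among all genes tested. All 52 genes gave 7 higher, 7 lower and 38 not called, with a median of 0.00078, but the 7 added genes had few counts in these groups. Casp4, the sensor of cytosolic LPS, chosen after its value was seen, rose 1.67-fold to 12.6 ± 0.160 CPM in naive CM, against 7.61 ± 0.405 CPM in regular medium (edgeR adjusted p = 9.53e-10). In IFNγ/LPS CM Casp4 stood far higher, at 240 ± 5.83 CPM.

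The genes whose pattern over the 12 libraries lay nearest to each of the 10, by the root mean square difference of centred log2 CPM, are given as a description. Tlr2 was nearest to Irf1 (0.0822) and Herc6 (0.0877), against its own root mean square variation of 2.56. Tlr3 was nearest to Ackr3 (0.113) and Tor3a (0.121), and Lbp to Timp1 (0.141) and Dgat2 (0.212), with an own variation of 2.46 for Lbp. Myd88 was nearest to Wars (0.0644) and Npc2 (0.0682), Tlr4 to Plscr1 (0.0518) and Cd302 (0.0533), Cd14 to Aldoa (0.0788) and Tmem176a (0.0802), Ly96 to Katna1 (0.0748) and Atp10a (0.0787), and Ticam1 to Mms19 (0.0531) and Psenen (0.0570), where the own variation of Ticam1 was 0.190. For Tlr1, with an own variation of 0.923, the nearest were Spp1 (0.443) and Nqo1 (0.484), and for Tlr6, with an own variation of 0.385, Rps6ka2 (0.178) and Rtl8c (0.183).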

How the data were processed

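Polyadenylated RNA of 12 libraries was sequenced as stranded paired reads of 150 bp, per the labels' protocols. The deposited table holds estimated counts of each gene as whole numbers; Salmon 1.10.1 and the mm10 build are named in the submitters' processing notes, while strand setting, summing to genes and annotation are not stated there. Columns named M0 were read as naive CM and those named M1 as IFNγ/LPS CM, as these states are usually called; no label spells this out, and every direction rests on it. Of 55822 identifiers 51344 had a symbol in GENCODE M21 without their version.

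Genes kept by filterByExpr (16140, among them all 10) were scaled by TMM and tested with the quasi-likelihood F-test of edgeR 4.0.16 (R 4.3.3, robust, two-sided, Benjamini-Hochberg over all genes tested) in 1 model of the 12 libraries, with 9 residual degrees of freedom; the SE is the log2 fold change over the square root of F. Where the lower group had at most 100 counts, summed counts were also compared as a ratio with its exact 95% interval. This ratio is printed for the 10 genes and for most of the named pathway genes. Cd36, with 62 counts in IFNγ/LPS CM, and the cell type markers are given without it. The fit was tested on simulated data. No 2 libraries of a group agreed within sampling noise. The members, lists and tests were chosen with earlier results of these data known. All 10 genes are named; from each pathway list up to 4 called genes with at least 1 CPM were named (the 3 largest changes in IFNγ/LPS CM against naive CM and the largest in the other direction), and for each of the 10 the 2 nearest genes; Tlr7 and the untested genes named by their counts are named outside that rule, with their values known. Alternatives were DESeq2 1.42.0 size factors and its Wald test, library totals, no filter, at least 1 CPM in at least 4 libraries, limma 3.58.1 (voom), only the groups compared, the replicate block, leaving out each library, for ratios a pseudocount of 0.5 CPM and, chosen after seeing the data, leaving out both libraries of lowest depth.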

Additional observations from a re-analysis of the deposited data

Results flagged for a closer look

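In 7 of 84 groups of 4 libraries (28 named genes in 3 groups), 1 library lay further from the others than expected of 4 values at the 95% level; chance flags about 1 in 20 groups. Among the 10 genes, Tlr2 in IFNγ/LPS CM replicate 4 was at 188.6 CPM, below 204.4 to 207.1 CPM in the other 3, Tlr3 in IFNγ/LPS CM replicate 1 at 218.4 CPM, below 222.3 to 222.8 CPM, and Ly96 in naive CM replicate 2 at 7.59 CPM, above 7.54 to 7.55 CPM; all 3 gaps are small beside the differences between IFNγ/LPS CM and naive CM. Cd36 in naive CM replicate 3 was at 6.71 CPM, above 5.47 to 5.63 CPM. Unc93b1 in naive CM replicate 1 was at 0.52 CPM (0.307 to 0.339 CPM in the others). Trem2 in IFNγ/LPS CM replicate 1 was at 6.32 CPM (5.12 to 5.32 CPM in the others), and in regular medium replicate 1 at 0.0343 CPM, with 0 in the other 3.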

How the results depend on the processing

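Under the alternatives, the log2 fold changes of the 10 genes kept direction and side of the threshold in 207 of 209 cases for IFNγ/LPS CM against naive CM, 203 of 209 for IFNγ/LPS CM against regular medium and 195 of 209 for naive CM against regular medium. With library totals Ticam1 turned to -0.18 in IFNγ/LPS CM against naive CM, and 13 pathway genes, not 6, were lower there and also against regular medium; the median over all genes moved by the same scaling to -0.38 and -0.41. Requiring at least 1 CPM in at least 4 libraries left Tlr1 out, so 1 of the 10, not 2, was lower in IFNγ/LPS CM than in naive CM. Leaving out 1 library gave 0 to 1 genes lower in IFNγ/LPS CM than in regular medium, and leaving out both libraries of lowest depth gave 0, since Tlr6 then missed the threshold (edgeR adjusted p = 0.0539). Myd88, not called in naive CM against regular medium, ranged from -0.0647 to 0.00213 on the log2 scale when 1 library was left out and was 0.0121 without both libraries of lowest depth; the cause was not tested. Ly96 in naive CM against regular medium was also lost without a filter (edgeR adjusted p = 0.0726). In the fit with a replicate block 10, 10 and 6 of the genes were called in IFNγ/LPS CM against naive CM, IFNγ/LPS CM against regular medium and naive CM against regular medium, as without it; same-numbered libraries deviated from their group means with correlations of -0.0637 to 0.0679 over 12 pairs, so the numbers were not taken to pair the samples. Depth limits Tlr1 and Tlr6, with 8 to 121 counts a library.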
